A study of Mus musculus with 18 samples.

Results

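The 10 genes described here mark endothelial cells, the cells that line blood and lymphatic vessels. They are a list of widely used markers, chosen with earlier results of these data known. They were taken by symbol from 55469 gene rows in each of 4 tables of prostate gene counts, and all 10 were found. The tables hold 18 RNA-seq libraries of dissected ventral and lateral lobes of the prostate from male mice on a C56NL/6N background, with 3 libraries, each of a different mouse per the study's methods, in each of 6 groups. WT mice (ELAC2+/+) were compared at 10 and at 30 weeks of age with 2 mutant lines. KO mice (ELAC2-/-) lost exon 8 of Elac2, the gene of an enzyme that trims the 3′ ends of tRNA precursors, through Cre expressed from the probasin (Pb) promoter, which is active in prostate epithelium, so the vessel cells of these mice were not the cells targeted. A537T mice (ELAC2A537T) carry a CRISPR-introduced alanine to threonine change in both copies of Elac2 in every tissue, vessels included. WT libraries of an age serve as controls for both lines, so the comparisons at one age share these 3 libraries.

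Endothelial cells hold together through adhesion molecules at their junctions, sense vascular endothelial growth factor (VEGF) and angiopoietins through receptor tyrosine kinases, and meet the blood with a glycoprotein-coated surface. In the prostate a capillary network runs in the stroma beneath the glandular epithelium and is fed through vessels wrapped in smooth muscle. In a tissue extract the markers measure how much endothelial RNA is in the sample, and fewer endothelial cells and less marker RNA per cell cannot be told apart.

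The junction genes are Pecam1 (CD31, chr11:106654217-106750628, reverse strand), which codes for an adhesion molecule of endothelial cells, platelets and leukocytes, Cdh5 (VE-cadherin, chr8:104101625-104144511, forward strand), the cadherin of endothelial adherens junctions, and Esam (chr9:37528078-37538319, forward strand), an adhesion molecule of tight junctions. The VEGF receptors are Kdr (VEGFR2, chr5:75932827-75978458, reverse strand), the main signalling receptor, and Flt1 (VEGFR1, chr5:147561604-147726011, reverse strand), which binds VEGF tightly and limits signalling through Kdr. Tek (TIE2, chr4:94739289-94874976, forward strand) is the angiopoietin receptor and Tie1 (chr4:118471191-118490061, reverse strand) its partner receptor. Eng (endoglin, chr2:32646595-32682669, forward strand) is a co-receptor for BMP9 and TGF-beta ligands, and it is also made by some stromal cells and macrophages. Emcn (endomucin, chr3:137341067-137432185, forward strand) codes for a sialomucin of capillaries and veins, and Vwf (chr6:125546774-125686679, forward strand) for von Willebrand factor, the adhesive clotting protein that is prominent in larger vessels. Coordinates are those of GRCm38.

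RefSeq promoter sequences of GRCm38.p6 were matched for 6 of the 10 genes, namely Eng, Emcn, Tek, Tie1, Kdr and Flt1. The 4 shown belong to the receptors whose groups stood apart in 1 or more comparisons, alone or against the other markers. Alone, this was 1 of 10 markers in KO at 10 weeks, where 26% of all genes stood apart. It was 2 of 10 in A537T at 30 weeks, beside 18.6% of all genes, and 0 in the other comparisons. The choice thus does not mark these receptors out. Each promoter is given as the 250 bases before the transcription start, 5′ to 3′. GGAAG or its reverse complement CTTCC, the core bound by ETS factors, is in capitals.
Kdr: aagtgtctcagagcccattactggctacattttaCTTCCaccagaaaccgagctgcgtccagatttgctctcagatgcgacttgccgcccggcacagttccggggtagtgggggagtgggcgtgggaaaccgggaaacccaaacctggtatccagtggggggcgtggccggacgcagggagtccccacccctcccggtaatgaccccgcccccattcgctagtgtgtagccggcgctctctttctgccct
Flt1: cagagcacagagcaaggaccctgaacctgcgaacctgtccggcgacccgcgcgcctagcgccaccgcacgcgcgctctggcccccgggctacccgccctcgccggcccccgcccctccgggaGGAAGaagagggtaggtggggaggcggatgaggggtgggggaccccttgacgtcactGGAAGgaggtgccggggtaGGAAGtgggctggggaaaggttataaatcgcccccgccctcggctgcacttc
Tek: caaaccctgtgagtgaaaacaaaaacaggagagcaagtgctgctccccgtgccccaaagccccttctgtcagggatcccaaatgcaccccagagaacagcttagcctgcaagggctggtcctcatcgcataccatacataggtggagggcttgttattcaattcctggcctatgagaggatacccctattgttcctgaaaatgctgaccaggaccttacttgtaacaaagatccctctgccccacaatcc
Eng: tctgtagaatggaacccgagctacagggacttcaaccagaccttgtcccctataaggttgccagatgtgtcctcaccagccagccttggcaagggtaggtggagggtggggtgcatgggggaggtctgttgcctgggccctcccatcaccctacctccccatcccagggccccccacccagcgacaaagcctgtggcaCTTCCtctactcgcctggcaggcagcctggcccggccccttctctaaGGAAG
They lie at chr5:75978456-75978705, reverse strand (Kdr), chr5:147726012-147726261, reverse strand (Flt1), chr4:94739039-94739288, forward strand (Tek) and chr2:32646345-32646594, forward strand (Eng). ETS factors such as ERG and FLI1 are known regulators of endothelial genes. GGAAG on either strand was found in 5 of the 6 promoters, against 64.1% of all 32851 promoter windows of the same length, so a match is common in any promoter. Tie1, not shown, held 6 copies, the most of the 6 promoters, and Emcn, also not shown, held 2. Flt1 held 3 copies, at 128, 71 and 52 bases before the start, and Kdr held 1, at 216 bases. Eng held 2, at 52 and 5 bases, whereas these letters are not in the Tek window. AACAAT, a SOX factor motif, occurred on either strand in Emcn and Tek (9.42% of all windows). TATAAA occurred in Flt1 alone of the 6 (12.4% of all windows), and CACGTG in none of them (6.02% of all windows). None of these motifs contains another, and a match describes the letters and not a bound site.

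Libraries held 6569642 to 11225281 recovered reads. Elac2 itself stood at 124 to 166 normalized counts in WT and 111 to 119 in KO libraries at 10 weeks, and at 149.6 to 194 and 98.4 to 151 at 30 weeks, where the groups met in range. A gene count cannot show the loss of exon 8. Tissue next to the prostate was present in some libraries. At 10 weeks the share of normalized counts in a list of 24 skeletal muscle genes was 4.0 to 12.9% in WT, 0.0597 to 2.09% in KO and 1.57 to 4.45% in A537T libraries. The share in a list of 10 seminal vesicle genes was 9.48, 6.56 and 10.3% in KO, 4.64, 1.77 and 0.000837% in WT and 0.0397 to 0.200% in A537T libraries at that age. At 30 weeks seminal vesicle RNA was present in 4AF (8.53%) and 6AF (6.32%) of the KO group and in 7AF (7.24%) and 9AF (9.18%) of the A537T group, against at most 0.00038% in the other 5 libraries.

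All 10 markers were measured in every library. In RPM, the reads of a gene scaled to a common total of 1e+06 reads in each library, which sets the 18 libraries on one scale for description only because the tables were normalised separately, the most abundant in WT prostates at 10 weeks were Pecam1, Vwf and Kdr, and the least abundant Emcn, Esam and Tie1. Pecam1 averaged 28 RPM in WT prostates at 10 weeks, with a range of 22.5 to 38.3, and 16 at 30 weeks, with a range of 7.07 to 22.3. Every marker had a higher group mean at 10 than at 30 weeks in each of the 3 genotypes. The ranges of the 2 ages did not meet for 7 of 10 markers in WT, 10 of 10 in KO and 5 of 10 in A537T prostates, and the median ratio of the means was 1.90, 1.81 and 1.73. Over the 14067 genes with a mean of at least 10 normalized counts in every table, 11.9% in WT, 21.3% in KO and 13.6% in A537T prostates were higher at 10 weeks without overlap, with median ratios of 0.947, 1.08 and 1.00. Among WT prostates the VEGF receptors had the highest ratios of the 10 markers, 2.60 for Flt1 and 2.52 for Kdr, and Vwf (1.18) and Eng (1.20) the lowest. No test between ages was made, and tissue makeup also differed between ages, as the skeletal muscle shares show.

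**Figure D1:**
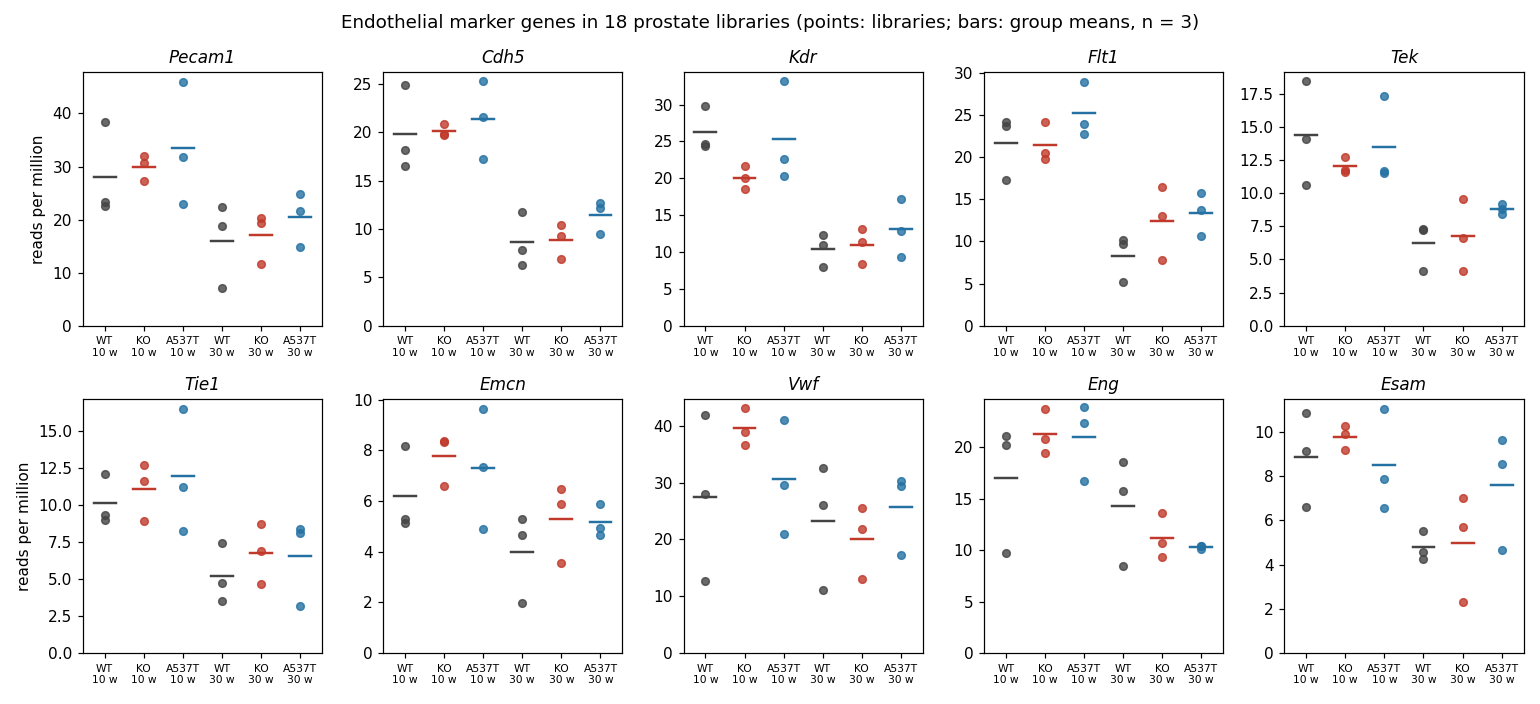
RPM (vertical axis, linear, starting at 0) of each of the 10 endothelial marker genes in the 6 groups of 3 libraries; points are libraries and bars are group means. Group means of all 10 genes are lower at 30 than at 10 weeks in each genotype, and mutant points lie among or beside the WT points of their age for most genes.

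In RPKM, the RPM per kilobase of the longest annotated transcript, Pecam1 ranked highest in all 6 groups. In WT prostates at 10 weeks it had 8.14 ± 2.60 RPKM (SD, n = 3), with no overlap with the next gene, Eng (4.98 ± 1.85). Eng, Cdh5 (4.98 ± 1.11), Esam (4.75 ± 1.15) and Kdr (4.44 ± 0.512) followed with overlapping ranges between neighbours. Kdr lay above Flt1 (3.15 ± 0.560) without overlap. Vwf, with the longest transcript of the 10, was at 3.11 ± 1.66 on this scale, beside Tek (3.09 ± 0.838), Emcn (2.39 ± 0.665) and Tie1 (2.39 ± 0.405), whose ranges overlapped from each to the next. At 30 weeks no neighbours in the order were separated in any genotype.

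Summed over the 10 genes, the markers took 139 to 253 RPM at 10 weeks and 61.3 to 141 at 30 weeks. The lowest sums at 30 weeks were those of WT library 1AF (61.3), KO library 5AF (76.0) and A537T library 8AF (93.0), and each of these stood below the other 2 libraries of its group. KO libraries 4AF and 6AF, with seminal vesicle RNA, had sums of 124 and 114, and A537T libraries 7AF and 9AF, also with it, 141 and 133. WT libraries 2AF and 3AF had sums of 131 and 111 without seminal vesicle RNA. Smooth muscle genes, a list of 8, took 0.215, 0.254 and 0.212% of counts in 1AF, 5AF and 8AF and 0.287 to 0.444% in the other 6 libraries of that age. At 10 weeks the lowest marker sum (12AF, 139) went with the highest skeletal muscle share (12.9%) and the lowest smooth muscle share (0.101%), and the highest sum (18AF, 253) with the highest smooth muscle share (0.887%). The part of these other tissues in the marker levels was not tested.

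**Figure D2:**
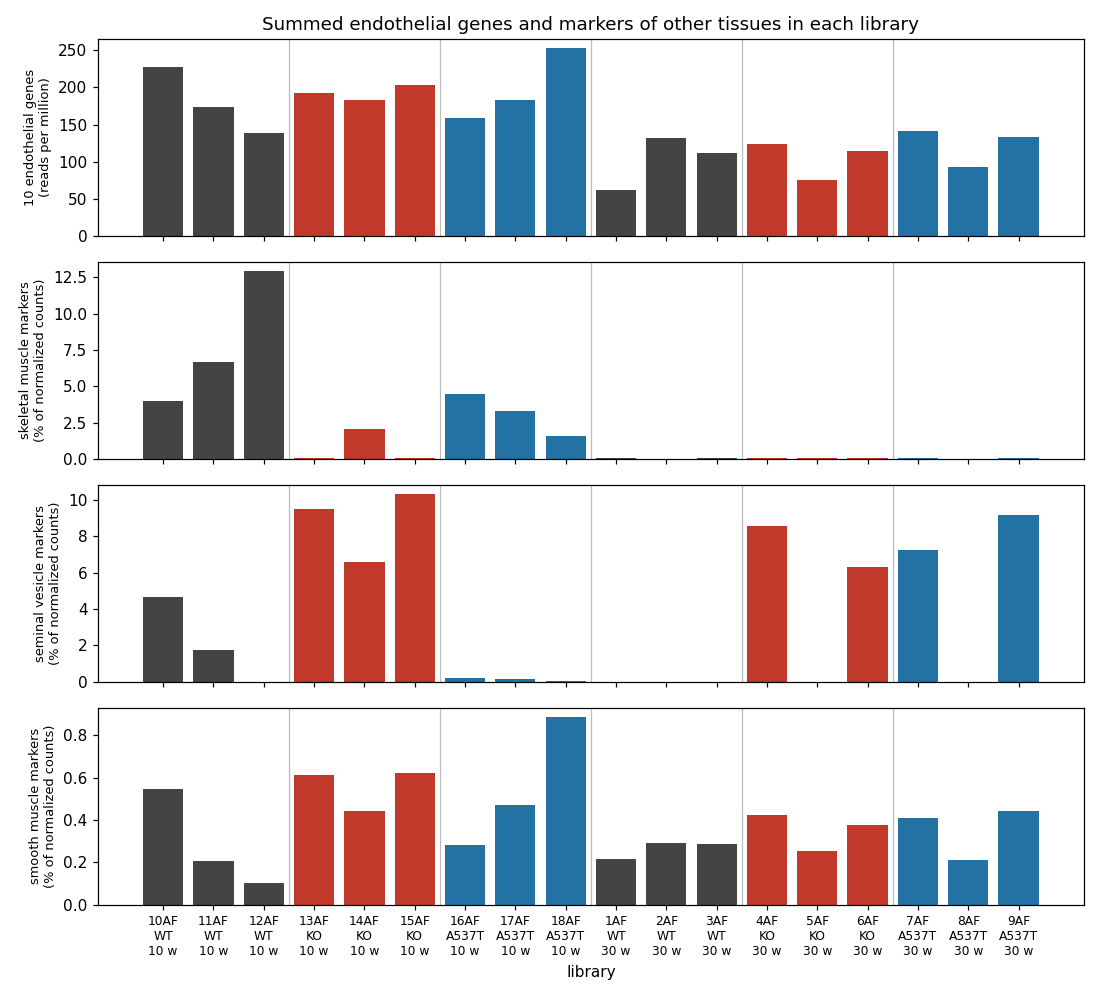
Bars give, for each of the 18 libraries, the RPM of the 10 endothelial genes together and the percentage of normalized counts taken by skeletal muscle, seminal vesicle and smooth muscle marker lists; grey is WT, red KO and blue A537T. Libraries 1AF, 5AF and 8AF have the lowest endothelial sums of their groups, and 12AF the lowest at 10 weeks.

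KO was compared with WT at 10 weeks to ask whether loss of Elac2 from the epithelium went with a difference in vessel markers of young prostates. Kdr was the marker that stood apart. Its normalized counts were 239, 208 and 255 in WT and 162, 163 and 139 in KO libraries, so that every KO library lay below every WT library. The log2 fold change was -0.59 ± 0.15 (SE; unadjusted p = 0.00502, adjusted p = 0.183, limma). No marker passed an adjusted p of 0.05, and 0% of the 15089 genes tested did. Kdr was the only one of the 10 at an unadjusted p under 0.05, where the whole table had 19.4% of genes, and the only one whose groups did not overlap, where the table had 26%. edgeR also called no marker and DESeq2 none, with 4.74% of genes called by DESeq2, and DESeq2 gave Kdr an adjusted p of 0.0639. Scaled to the same library total, Kdr stood at -0.38. That scaling put the median of all genes at 0.20 on the log2 scale (0.15 for A537T at 10 weeks). With the skeletal muscle score as covariate Kdr was at -0.45 ± 0.27 (unadjusted p = 0.14, limma). Each KO library held less skeletal muscle RNA than any WT library, so that fit can hardly separate genotype from the score. Leaving out single libraries, without the covariate, gave -0.67 to -0.52 for Kdr. Standard errors of the 10 markers were 0.14 to 0.33 in this comparison and 0.28 to 0.48 in KO at 30 weeks. With 3 libraries a group a change must be several standard errors in size to pass, and Kdr, at -0.59 ± 0.15, did not. Differences well above the standard errors could thus have been missed.

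The other 9 markers had log2 fold changes between -0.43 and 0.47 in KO at 10 weeks, and the median of all 10 was -0.078, beside -0.0061 over all genes. With the muscle score as covariate it was -0.17. Tek, the angiopoietin receptor, had 148, 90.8 and 146 normalized counts in WT and 94.5, 96.0 and 86.9 in KO libraries, so WT library 11AF lay within the KO range. Its log2 fold change was -0.43 ± 0.23 (adjusted p = 0.324, limma). Flt1, the other VEGF receptor, had 194, 202 and 179 in WT and 152, 162 and 182 in KO libraries, with 1 KO library above the lowest WT library. Pecam1 had 307, 192 and 241 in WT and 229, 222 and 240.1 in KO libraries, which all lay inside the WT range. Cdh5 averaged 175 ± 22.6 in WT and 155 ± 7.46 in KO libraries (SD, n = 3), a log2 fold change of -0.17 ± 0.15. Vwf spread most among WT libraries, with 336, 239 and 131 normalized counts, against 272, 317 and 324 in KO. The Vwf log2 fold change of 0.47 went to 0.10 without WT library 12AF, the one with the most skeletal muscle RNA, and to 0.78 without WT library 10AF (adjusted p = 0.0848, limma).

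A537T was compared with WT at 10 weeks for the same question in mice that carry the variant in every tissue. Every marker overlapped between the groups. Log2 fold changes ran from -0.22 for Esam and -0.22 for Kdr to 0.34 for Eng, with a median of 0.090 beside 0.011 over all genes. Of the 10 markers 6 were above and 4 below WT. None had an unadjusted p under 0.05, against 6.43% of 15131 genes, and none passed an adjusted p of 0.05 with limma, edgeR or DESeq2, against 0%, 0% and 0.595% of genes. The share of genes without overlap was 11.9%. Pecam1 had 324, 198 and 250.3 normalized counts in WT and 204, 275 and 360.2 in A537T libraries, where 18AF was above and 16AF near the lowest WT library. Kdr had 254, 217 and 266 in WT and 182, 196 and 260.3 in A537T libraries, and 2 of the 3 A537T libraries lay below all WT libraries. Eng had 158, 173 and 96.9 in WT and 200.02, 145 and 188 in A537T libraries, and its log2 fold change was 0.34 ± 0.26 (adjusted p = 0.775, limma). Without library 18AF the median over the 10 markers was -0.091, with 2 above WT, and with a skeletal muscle score in the fit it was -0.30.

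At 30 weeks KO and WT prostates overlapped in all 10 markers. The median log2 fold change was 0.083, beside -0.0067 over all genes, with 7 markers above and 3 below WT. With a seminal vesicle score in the fit the median was -0.28. No marker had an unadjusted p under 0.05, where 11% of 14729 genes did, and none passed the adjusted threshold by limma (0% of genes), edgeR or DESeq2 (1.93% of genes). Groups did not overlap for 16.3% of genes. Flt1 had the highest of the 10 estimates, 0.57 ± 0.40 (adjusted p = 0.614, limma), from 45.8, 91.0 and 89.1 normalized counts in WT and 156, 63.9 and 123 in KO libraries. Libraries 4AF and 6AF lay above all WT libraries and 5AF lay among them. Pecam1 showed the spread within each group, with 62.7, 209 and 165 in WT and 193, 96.2 and 184 in KO libraries. Emcn, the sialomucin, had 17.7, 43.8 and 46.5 in WT and 61.5, 29.4 and 55.8 in KO libraries. Tie1, the partner of Tek, had 31.4, 69.1 and 41.6 in WT and 65.2, 38.2 and 82.6 in KO libraries. In all 3 genes the lowest KO library was 5AF and the lowest WT library 1AF. Eng had the lowest estimate, -0.28 ± 0.31, from 74.8, 174 and 139 in WT and 88.6, 112.3 and 101.2 in KO libraries. Without WT library 1AF, 4 of the 10 markers were above WT and the median was -0.13. Without KO library 5AF, 9 were above and it was 0.47.

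A537T prostates at 30 weeks had 9 of 10 markers above WT and Eng below. In the other comparisons 3 (KO, 10 weeks), 6 (A537T, 10 weeks) and 7 (KO, 30 weeks) were above. The 10 log2 fold changes had a median of 0.42, beside -0.0052 over all genes. With a seminal vesicle score in the fit the median was 0.093, and that RNA was present in 2 of the 3 A537T libraries and at most at 0.00038% in WT. None reached an unadjusted p under 0.05, where 13.6% of 14789 genes did, and none passed the adjusted threshold by limma (0% of genes), edgeR or DESeq2 (3.22% of genes). Groups did not overlap for Flt1 and Tek, 2 of 10, where the whole table had 18.6%. Flt1 had 44.9, 89.5 and 88.1 normalized counts in WT and 121, 89.7 and 147 in A537T libraries. All 3 A537T libraries were above the WT libraries, 8AF only just, and the log2 fold change was 0.71 ± 0.32 (adjusted p = 0.379, limma). Tek had 36.9, 67.7 and 64.3 in WT and 80.4, 74.2 and 78.9 in A537T libraries, which lay close together above the WT range, with a log2 fold change of 0.51 ± 0.26 (adjusted p = 0.422, limma).

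Esam, the tight junction molecule, had 44.9, 39.0 and 34.6 normalized counts in WT and 84.4, 39.5 and 80.0 in A537T libraries at 30 weeks. Libraries 7AF and 9AF, those with seminal vesicle RNA, were above all WT libraries and 8AF was within their range. The log2 fold change was 0.70 ± 0.32 (adjusted p = 0.391, limma). Without 8AF it was 1.04, with an adjusted p of 0.0395, where 8.27% of 14801 genes passed, so that 1 of 10 markers was near the share of all genes. No other marker passed in any of the comparisons under the alternatives run. With the seminal vesicle score as covariate it was 0.059. Pecam1 had 61.8, 203 and 161 in WT and 218, 125 and 202 in A537T libraries. Cdh5 had 56.1, 110.1 and 70.3 in WT and 111, 80.0 and 114 in A537T libraries. A537T libraries 7AF and 9AF passed the highest WT library for Cdh5, and 7AF alone did so for Pecam1, while WT library 1AF was lowest for both. Eng alone had a lower estimate in A537T than in WT, -0.42 ± 0.30, from 75.4, 174 and 139.5 in WT and 91.4, 85.8 and 97.5 in A537T libraries. Without WT library 1AF, 6 of 10 markers were above WT and the median was 0.058.

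**Figure D3:**
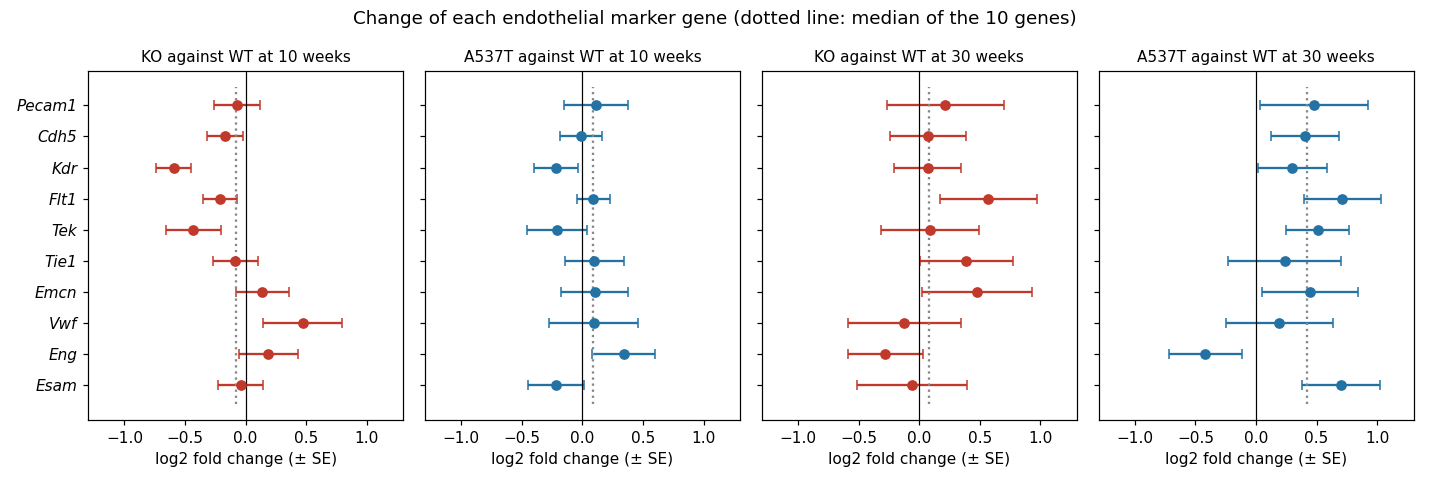
Log2 fold change with its standard error (horizontal axis) of the 10 endothelial marker genes in the 4 comparisons with WT, from limma on 3 against 3 libraries; the dotted line is the median of the 10 genes. Kdr in KO at 10 weeks, at -0.59, is the only marker with an unadjusted p under 0.05, and at 30 weeks Flt1 has the highest and Eng the lowest estimate in both lines.

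To take out the amount of endothelial RNA in a library, each marker was also set against the mean of the other 9, on the log2 scale. None of the 40 comparisons passed an exact permutation test (two-sided, 3 against 3 libraries), which cannot give a p under 0.1 and gave 0.1 in 5 cases, with an adjusted p of 0.8. These 5 were the cases without overlap. Groups of 3 libraries stand apart in a share of 0.1 of all arrangements, so 5 of 40 was near that share. Kdr relative to the others was 0.64 to 1.09 in WT and 0.056 to 0.35 in KO libraries at 10 weeks, and 0.54 to 0.62 in A537T against 0.67 to 1.11 in WT. Flt1 relative to the others was -0.17 to 0.12 in WT and 0.26 to 0.63 in KO libraries at 30 weeks, and 0.16 to 0.44 in A537T against -0.18 to 0.11 in WT. Eng in A537T at 30 weeks was the last, with 0.69 to 0.88 in WT and -0.28 to 0.32 in A537T. The WT libraries behind the values of both lines are the same.

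The ratio of Kdr to Flt1, the signalling over the limiting VEGF receptor, was computed within each library after these values were seen and is given with no test. In normalized counts it was 1.23, 1.03 and 1.43 in WT, 1.06, 1.01 and 0.77 in KO and 0.90, 0.94 and 1.15 in A537T libraries at 10 weeks. At 30 weeks it was 1.54, 1.27 and 1.09 in WT, 0.80, 1.08 and 0.87 in KO and 1.25, 0.88 and 0.82 in A537T libraries. WT libraries were above 1 throughout, whereas 7 of the 12 mutant libraries were below it. The longest transcript has 6895 bases for Flt1 and 5924 for Kdr, so a count ratio of 1 does not mark equal levels. Scaled by length, every ratio would be higher and fewer mutant libraries would lie below 1. KO libraries at 30 weeks all lay below the WT libraries of that age, 5AF only just, and the other 3 mutant groups overlapped WT in part. The ratio of Eng to Pecam1 was 1.19, 0.83 and 0.84 in WT, 0.46, 1.17 and 0.55 in KO and 0.42, 0.68 and 0.48 in A537T libraries at 30 weeks. The 4 libraries with seminal vesicle RNA (4AF, 6AF, 7AF and 9AF) had the 4 lowest ratios at this age. At 10 weeks all 3 KO libraries held seminal vesicle RNA, and so did WT libraries 10AF (4.64%) and 11AF (1.77%). The ratio was 0.63, 0.76 and 0.74 in KO, 0.53, 0.94 and 0.42 in WT and 0.98, 0.53 and 0.52 in A537T libraries. The KO libraries lay inside the WT range, whose lowest value was that of 12AF, with 0.000837% of this RNA. The part of seminal vesicle RNA in the ratio was not tested.

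**Figure D4:**
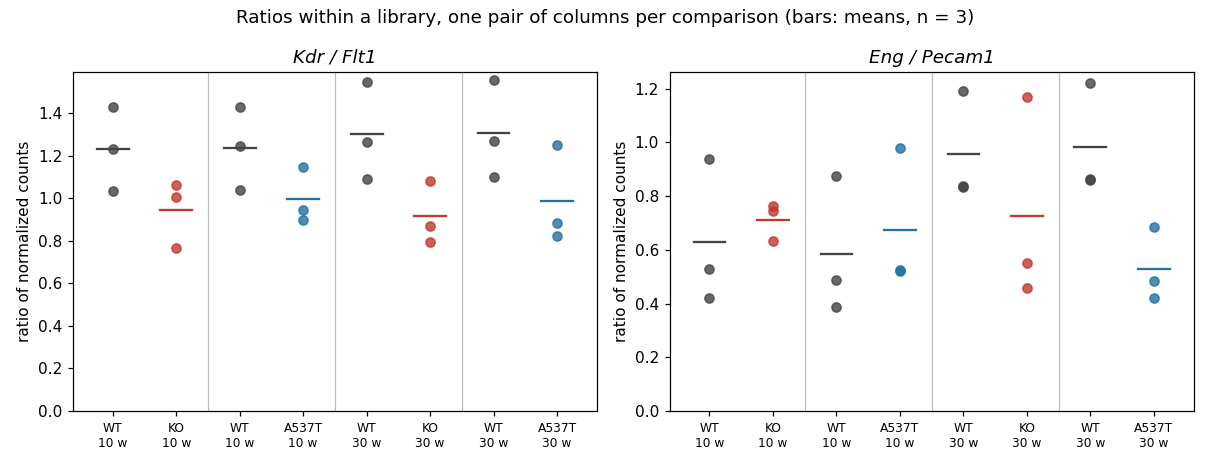
Ratios of normalized counts (vertical axes, linear, from 0) of Kdr to Flt1 and of Eng to Pecam1 within each library, with the WT and mutant libraries of each comparison side by side; points are libraries and bars are means. WT ratios of Kdr to Flt1, not scaled by transcript length, are all above 1, and at 30 weeks the 3 KO libraries lie below the 3 WT libraries.

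Changes at 30 weeks were compared with those at 10 weeks by permuting genotypes inside each age exactly (400 arrangements, two-sided, 10 markers in 2 lines). No marker passed, with exact p from 0.0650 and adjusted p from 0.620 upwards. The lowest p was that of Tek in A537T, with log2 changes of -0.21 at 10 and 0.51 at 30 weeks. Esam in A537T followed, with -0.22 and 0.70 (exact p = 0.0750), and Kdr in KO had -0.59 and 0.071 (exact p = 0.12).

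Over the 18 libraries, the level of each marker followed the mean of the other 9 (log2 of RPM + 1), with Pearson's r from 0.67 for Eng to 0.96 for Cdh5. These values describe libraries that share the age difference and tissue makeup, and carry no p. Within an age (9 libraries) Pecam1 had an r of 0.90 at 10 and 0.97 at 30 weeks, and Cdh5 0.92 and 0.91. Kdr had 0.44 at 10 and 0.92 at 30 weeks. Eng had 0.56 and 0.069, the lowest of the 10 at 30 weeks. Spearman's rho at 30 weeks was 0.98 for Kdr and 0.033 for Eng.

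The genes most like the mean of the 10 markers over the 18 libraries, among 14067 genes that averaged 10 or more normalized counts in each table, were Dmpk (r = 0.985), a kinase gene of muscle, and Ptprb (r = 0.966), the endothelial phosphatase VE-PTP that acts on Tek. Atrnl1, Sema7a, Eln (elastin), Lum (the matrix proteoglycan lumican), Atp2a2 (the calcium pump SERCA2), Zfp366, Ptprm and Arhgef17 followed, with r from 0.945 to 0.962. Of the 10 genes, Ptprb alone was on an endothelial list, and the median r over all genes was 0.0443. Outside the markers, these lists held 46 of the 14067 genes, and 8 of the 100 genes most like the mean. Within 30 weeks Dmpk had an r of 0.971 and Ptprb 0.955, and within 10 weeks 0.938 and 0.786.

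Other vessel genes were described by lists of endothelial genes, growth factors and vessel types, with the median of each list beside that of all genes, which lay within 0.011 of 0 in each comparison. No gene of any list passed an adjusted p of 0.05 with limma. Of 22 further pan-endothelial genes tested at 10 weeks, 10 were above and 12 below WT in KO (median -0.055), and 15 above and 7 below in A537T (median 0.17). Of the 20 tested at 30 weeks, 14 were above WT in KO (median 0.23) and 17 in A537T (median 0.33). Fitted with the muscle score these medians were -0.21 and -0.11 at 10 weeks, and fitted with the seminal vesicle score -0.16 and 0.043 at 30 weeks, so that 2 of the 4 changed sign. Cd34, a sialomucin of endothelial and stromal progenitor cells, had 124 to 196 normalized counts in WT and 301 to 349 in A537T libraries at 30 weeks, without overlap, and a log2 fold change of 0.93 ± 0.20 (adjusted p = 0.221 with limma, 0.00727 with DESeq2). Ptprb was at -0.17, 0.045, -0.036 and 0.11 on the log2 scale in KO and A537T at 10 weeks and KO and A537T at 30 weeks.

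Among endothelial transcription factors, 7 of the 8 tested were above WT in A537T at 30 weeks (median 0.72), 4 of them at an unadjusted p under 0.05 (13.6% of all genes). In KO at that age 5 of 7 were above WT (median 0.38), 2 of them at an unadjusted p under 0.05 (11% of all genes). Fitted with the seminal vesicle score the medians were 0.50 and 0.40. Ets1, a founding ETS factor that lymphocytes also make, had 75.2 to 85.8 normalized counts in WT and 104 to 123 in A537T libraries (log2 fold change 0.53 ± 0.15, adjusted p = 0.274, limma), and 109 to 133 in KO libraries (log2 fold change 0.57 ± 0.15, adjusted p = 0.391). Klf4, a shear-responsive factor also found in epithelium, was at 0.74 ± 0.23 in A537T at 30 weeks. Gata2, which prostate epithelium makes too, ranged from 52.0 to 822 normalized counts among WT libraries at 10 weeks alone.

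VEGF ligands and co-receptors, 8 tested, had medians of -0.063 and 0.28 in KO and A537T at 10 weeks and -0.20 in KO at 30 weeks, and the 7 tested in A537T at 30 weeks 0.12. Fitted with the muscle score the medians at 10 weeks were -0.38 and -0.058. Vegfa, the ligand of Kdr and Flt1, had 473 to 859 normalized counts in WT and 297 to 372 in KO libraries at 10 weeks, without overlap. Its log2 fold change was -0.92 ± 0.23 (adjusted p = 0.183 with limma, 0.0151 with DESeq2). Skeletal muscle, which also makes Vegfa, took less of the RNA in each KO library than in any WT library, and its part in this value was not tested. In the other 3 comparisons Vegfa stood at -0.16, -0.083 and 0.050. Its co-receptor Nrp1 lay between -0.15 and 0.28 in all 4. Angiopoietin pathway genes, 5 tested, had medians of -0.17 and 0.089 in KO and A537T at 10 weeks and 0.041 and 0.15 at 30 weeks. Fitted with the seminal vesicle score the medians at 30 weeks were 0.11 and 0.22. Angpt1, the Tek ligand made by perivascular cells, had 18.8 to 22.9 normalized counts in WT and 31.8 to 133 in A537T libraries at 30 weeks (log2 fold change 1.81 ± 0.51, adjusted p = 0.274 with limma, 0.00789 with DESeq2), and 18.4 to 132 in KO libraries, which overlapped WT. Angpt2, the context-dependent antagonist stored in endothelial cells, was named after its values were seen. It had 50.5 to 79.4 in WT and 25.1 to 47.2 in A537T libraries (-0.77 ± 0.30, adjusted p = 0.342, limma). In that comparison Angpt1 was the highest and Angpt2 the lowest of the 5 angiopoietin pathway genes. Notch pathway genes were above WT in 8 of 9 at 30 weeks in both lines, with medians of 0.57 in KO and 0.53 in A537T, and 3 of the 8 had an unadjusted p under 0.05 in each, beside 11% and 13.6% of all genes. Fitted with the seminal vesicle score the medians were 0.15 and 0.28. Hes1, a Notch target in many cell types, had 124 to 189 in WT and 242 to 259 in KO libraries at 30 weeks (0.73 ± 0.17, adjusted p = 0.381, limma). Of 12 BMP and TGF-beta receptor pathway genes, the medians in KO and A537T at 10 weeks and then at 30 weeks were 0.32, 0.23, 0.089 and 0.19. With the muscle or seminal vesicle score they were 0.36, -0.062, -0.10 and -0.089, with 3 of the 4 of the other sign. Bmpr2 stayed between -0.17 and 0.043.

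Vessel types had unlike medians in KO at 10 weeks, with no test between them. Capillary genes had a median log2 fold change of -1.12, with 5 of 6 below WT and 4 at an unadjusted p under 0.05, beside 19.4% of all genes. Cd36, a fatty acid transporter of capillaries that muscle and fat also express, had 617 to 913 normalized counts in WT and 149.8 to 403 in KO libraries (-1.61 ± 0.35, adjusted p = 0.183 with limma, 0.00344 with DESeq2). Fabp4, a fatty acid carrier of capillaries and adipocytes, was at -1.36 ± 0.49, and Aqp1, a water channel, at 0.025 ± 0.14. All 24 skeletal muscle genes (median -7.08) and all 8 adipocyte genes (median -0.97) were also below WT in this comparison, and their part in the capillary values was not tested. The capillary median was -0.76 in the fit with a skeletal muscle score. Venous genes, 4 tested, were all above WT (median 0.84), 1 of them at an unadjusted p under 0.05, and arterial genes were divided, 3 above and 3 below. Smooth muscle genes, all 8 above WT, had a median of 1.01. Of these, 2 had an unadjusted p under 0.05 and 0 had groups without overlap, where the whole table had 26%. Fitted with the skeletal muscle score the medians were 0.66 for venous and 0.34 for smooth muscle genes. In A537T at 10 weeks, against the same WT libraries, all genes tested of both lists were also above WT. Their medians there were 0.55 for venous and 0.94 for smooth muscle genes, and -0.078 and -0.30 with that score. Among pericyte genes Rgs5, a marker of these capillary-wrapping cells, had 501 to 823 in WT and 199 to 296 in KO libraries (-1.29 ± 0.24, adjusted p = 0.183 with limma, 0.000673 with DESeq2), and Abcc9, a potassium channel subunit that muscle expresses too, 529 to 1299.6 and 238 to 372 (-1.42 ± 0.34, DESeq2 adjusted p = 0.00344). Rgs5 and Abcc9 were the 2 of 7 pericyte genes called by DESeq2, beside 4.74% of all genes. Of the 7, 2 were above and 5 below WT, from -1.42 to 0.55. Their median was -0.047, and -0.21 with the muscle score. The part of skeletal muscle RNA in the Rgs5 and Abcc9 values was not tested.

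Lymphatic genes were all above WT in A537T at both ages, 7 of 7, with medians of 0.74 at 10 and 0.53 at 30 weeks, and 0.16 and -0.042 in KO. Mmrn1, a multimerin of lymphatic endothelium and platelets, had 40.6 to 105 normalized counts in WT and 102 to 178 in A537T libraries at 10 weeks (1.19 ± 0.38, adjusted p = 0.746, limma). In the fit with that muscle score the median at 10 weeks was 0.032. Red cell genes, 5 of 5 above WT in A537T at 10 weeks with a median of 1.02, took 0.0302 to 0.0480% of counts in A537T and 0.0151 to 0.0212% in WT libraries. At 30 weeks macrophage genes, 7 of 7 above WT in A537T, had a median of 1.01, and they were higher in 8AF (0.0261% of counts) than in any other library. Fibroblast genes, 7 in all, had medians of 0.025, 0.30, 0.087 and 0.40, and 8 luminal epithelium genes 0.13, 0.12, -0.14 and -0.22, in KO and A537T at 10 weeks and then at 30 weeks. Platelet genes, which share Pecam1 and Vwf expression with endothelium, took at most 0.000786% of counts, with Pf4 the most abundant.

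**Figure D5:**
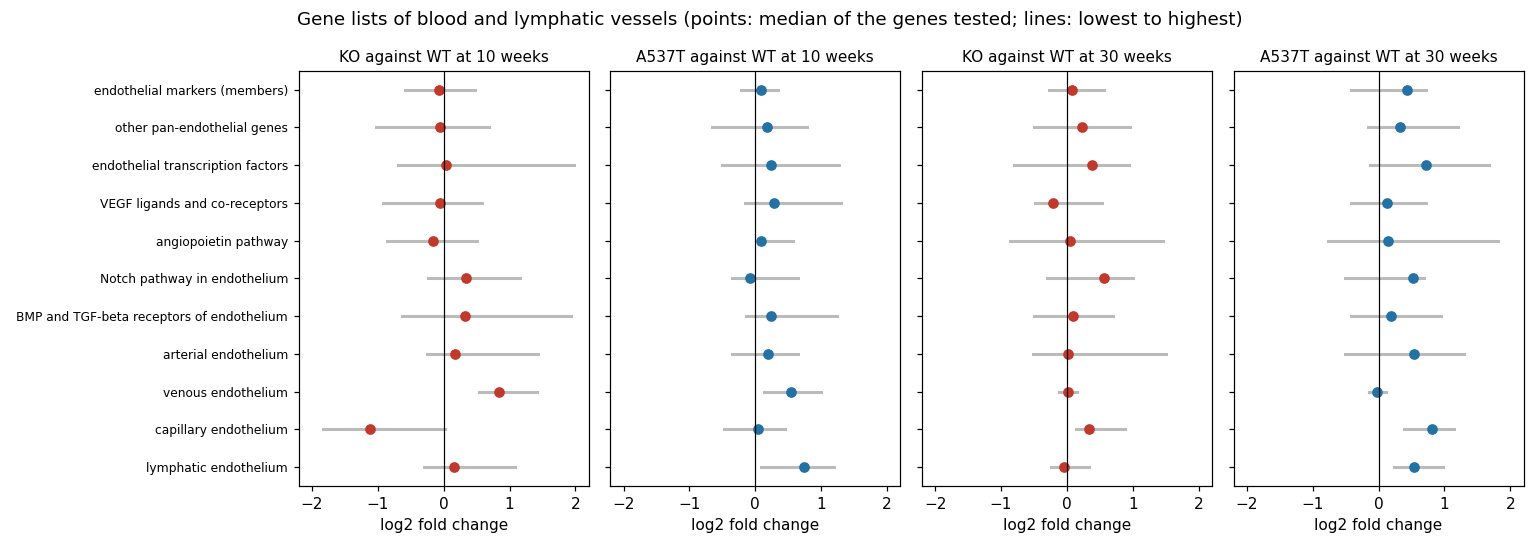
Median log2 fold change (points) and the lowest to highest gene (lines) of the endothelial markers and of 10 further lists of vessel genes in the 4 comparisons. The capillary list is at -1.12 in KO at 10 weeks, and in the fit without a covariate the medians of A537T at 30 weeks lie above 0 in every list but the venous one. With the seminal vesicle score, not drawn, the arterial and the BMP and TGF-beta medians of that comparison are -0.17 and -0.089, and the capillary median goes from 0.81 to 0.055.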

How the data were processed

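Total RNA from ventral and lateral lobes was sequenced on the Illumina NovaSeq platform. Reads were trimmed with Trim Galore 0.4.1 and cutadapt 1.18, aligned to GRCm38.p6 with STAR 2.7.3a, quantified with Salmon in stranded mode and imported with tximport. The signal values deposited by the authors are normalized counts, that is, each gene count over the DESeq2 size factor of its library, in tables of 6 libraries. The deposited tables of shrunken log2 fold changes and s-values, made by the authors with DESeq2 1.26 and apeglm, were not used. Columns carry library labels without genotype or replicate: libraries found in both comparisons of an age were taken as WT, and those in 1 comparison as its mutant group. Because tables were normalized separately, tests were made within a table.

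Testing was on log2(normalized count + 1), for genes whose normalized counts averaged 10 or more. Fold changes of low genes are understated on this scale. The test was limma 3.58.1 in R 4.3.3 (lmFit, eBayes with a mean trend, Benjamini-Hochberg adjustment over all genes tested, threshold 0.05). All 10 markers passed this filter in every table. Reads were recovered as whole multiples of the value of 1 read (at least 99.99% of values within 0.1) and tested with edgeR 4.0.16 and DESeq2 1.42.0 as alternatives. Each WT library stands in 2 tables, and 53.6 to 64.1% of its genes had other recovered reads in one than in the other. For the markers this difference had a median of 1.08% and a maximum of 8.55%. Other alternatives were a pseudocount of 8, minimum means of 1 and 100, scaling to the same total, no mean trend, a skeletal muscle score (10 weeks) or seminal vesicle score (30 weeks) as covariate, and leaving out each library. Steps were tested on simulated data. The limma p-values set a group difference against the spread between these libraries, moderated over all genes. Exact p-values give the share of arrangements with a difference at least as large. The markers and 22 gene lists of 201 genes were chosen with earlier results of these data known. Named genes are the 10 markers, Elac2, up to 3 of the most abundant genes of each list, and the 10 genes most like the mean of the markers, with and without endothelial genes, of which 1 gene is not reported here. Angpt2 was added after its values were seen. Gene positions and lengths came from the GENCODE annotation of GRCm38, and promoters from RefSeq. Scripts used Python 3.11.15 with scipy 1.17.1 and pandas 2.3.3, numpy 2.4.6, and matplotlib 3.10.9 for plots.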

Additional observations from a re-analysis of the deposited data

How the results depend on the processing

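No paired analysis was possible because the columns carry no replicate numbers. The count of markers past the adjusted threshold was 0 in all 4 comparisons and stayed 0 under every alternative run except leaving out A537T library 8AF at 30 weeks, where it was 1 (Esam) and 8.27% of 14801 genes passed, so that leaving out single libraries gave 0 to 1 there. Leave-one-out fits with 2 libraries in a group used the spread of all 5. The number of markers past the exact test between ages stayed 0 with a pseudocount of 8 and with the same total, while the exact test of levels relative to the other markers could not pass at any setting. The median of the markers moved by more than the spread between libraries with the same total in KO at 10 weeks (0.13) and with the muscle covariate in A537T at 10 weeks (-0.30). The same total shifts all genes in KO at 10 weeks, and against the median of all genes the markers were at -0.072 before and -0.069 after it. With the seminal vesicle score the medians at 30 weeks were -0.28 (KO, 0.083 without it) and 0.093 (A537T, 0.42 without it). Single markers kept their direction in 177 of 200 values under alternatives that keep all libraries and can change a fold change. With the same total, log2 fold changes of the other sign were Esam 0.17, Pecam1 0.14, Cdh5 0.041 and Tie1 0.13 in KO at 10 weeks, and Cdh5 0.13 in A537T at 10 weeks. With the skeletal muscle covariate, log2 fold changes of the other sign were Emcn -0.10 in KO at 10 weeks, and Vwf -0.78, Pecam1 -0.32, Flt1 -0.036, Tie1 -0.22 and Emcn -0.29 in A537T at 10 weeks. With the seminal vesicle covariate, log2 fold changes of the other sign were Tek -0.55, Pecam1 -0.26, Flt1 -0.047, Cdh5 -0.30, Tie1 -0.10, Emcn -0.033 and Kdr -0.33 in KO at 30 weeks, and Vwf -0.26, Tie1 -0.57 and Kdr -0.12 in A537T at 30 weeks. Esam in KO at 30 weeks was 0.10 with edgeR and 0.10 with DESeq2. Leaving out single libraries, KO at 10 weeks gave Pecam1 from -0.24 to 0.10, Esam from -0.13 to 0.086, Eng from -0.064 to 0.35 and Tie1 from -0.17 to 0.021. Leaving out single libraries, A537T at 10 weeks gave Cdh5 from -0.10 to 0.10, Pecam1 from -0.090 to 0.32, Emcn from -0.070 to 0.32, Vwf from -0.28 to 0.41 and Tie1 from -0.10 to 0.30. Leaving out single libraries, KO at 30 weeks gave Esam from -0.40 to 0.47, Tek from -0.23 to 0.47, Pecam1 from -0.30 to 0.56, Cdh5 from -0.14 to 0.35, Kdr from -0.12 to 0.31 and Vwf from -0.59 to 0.23. Leaving out single libraries, A537T at 30 weeks gave Vwf from -0.28 to 0.53, Pecam1 from -0.035 to 0.82 and Tie1 from -0.020 to 0.71. The cause was not tested. Other markers kept their sign without any one library, among them Kdr, Tek, Cdh5, Flt1 and Emcn in KO at 10 weeks, Flt1, Tie1, Emcn and Eng in KO at 30 weeks, and Flt1, Tek, Kdr, Cdh5, Esam, Emcn and Eng in A537T at 30 weeks.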
